A study of Mus musculus with 12 samples.

Results

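The genes of cholesterol and fatty acid synthesis were followed through RNA sequencing of mouse intestinal crypts and of monolayers grown from them. The members were 28 genes named by their known function and found by matching Ensembl IDs to mouse symbols, and they made up 28 of the 55487 genes measured. They were chosen with earlier results of these data known. Their shares beside those of all tested genes below are therefore descriptions and not tests of an independent set. They comprise 7 genes of the early steps from acetyl-CoA to farnesyl diphosphate, 11 genes of the later steps through squalene to sterols, 4 regulators and sterol carriers, and 6 genes of fatty acid synthesis and desaturation. All 28 passed the filter on low counts.

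The study compared freshly isolated crypts (tissue) with intestine-derived monolayers, for the small intestine (SI) and the large intestine (LI). SI tissue and LI tissue were in vivo crypts of untreated C57BL/6 mice, with 1 mouse per library and 3 libraries per group. SI monolayers and LI monolayers came from C57BL/6 crypts seeded on Matrigel and held for 24 h in control medium, with 3 libraries of pooled wells per group. The mice that gave crypts for monolayers were young adults of either sex, the SI crypts were from the jejunum, and LI crypts were released with digestive enzymes that SI crypts did not receive. The labels give no genotype beyond the strain. The crypts spent their first 4 h on the plate with CHIR-99021, LDN-193189 and Y-27632 beside EGF, R-spondin-1 and Wnt3a. The medium after that held Wnt3a, R-spondin-1, EGF and Noggin, with the N-2 and B-27 supplements throughout. By the methods, SI and LI monolayers were made from the same mice, but the labels do not link libraries to mice, so regions were compared as unpaired groups. Region and the way of releasing crypts cannot be told apart, and neither can culture and the other steps that separate monolayers from fresh crypts.

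Cholesterol is built from acetyl-CoA by the mevalonate pathway, which ends in farnesyl diphosphate, and then by cyclisation of squalene to lanosterol and stepwise trimming of that sterol. Fatty acids are built from the same acetyl-CoA, and stearoyl-CoA desaturases then place a double bond in them. SREBP transcription factors, which Insig proteins hold in the endoplasmic reticulum while sterol is plentiful, raise transcription of both pathways, and the intestine is known as a major site of sterol synthesis outside the liver.

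The libraries held 59016196 to 76216530 counts. In SI tissue they held 61172680, 67498504 and 67719720 counts, in SI monolayers 67068327, 71963600 and 70802383, in LI tissue 70768226, 74437502 and 76216530, and in LI monolayers 69377529, 59016196 and 69136051. Levels are given as the authors' normalized counts, in which each library's counts were divided by 1 size factor, and library values are listed in the order of replicates 1, 2 and 3. Means are given ± SD with n = 3. Differences are log2 fold changes from edgeR's quasi-likelihood test on the deposited counts of 19581 genes, with SE. Gene positions are those of the GENCODE annotation on GRCm38. A gene was called, and is said to rise or fall, where the Benjamini-Hochberg adjusted p was under 0.05 and the log2 fold change at least 1 in size, either way. The p-values rest on 1 estimate of the spread between libraries per gene, shared by the 4 groups, and not on the compared groups alone. For the monolayers the spread between libraries may be technical, since each library is a pool of wells.

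Culture went with a higher summed level of the members in SI and a lower one in LI. The 28 genes together took 0.245%, 0.263% and 0.308% of all counts in SI tissue and 0.711%, 0.715% and 0.708% in SI monolayers. Their share was 0.489%, 0.524% and 0.442% in LI tissue and 0.220%, 0.228% and 0.247% in LI monolayers. The libraries of SI monolayers thus lay highest, those of LI tissue next, and those of LI monolayers at or below the level of SI tissue, with an overlap between these last groups. Summed over the 28 genes, the normalized counts of SI monolayers were 2.43 times those of SI tissue, and those of LI tissue were 2.09 times those of LI monolayers. Without Scd1 and Scd2 the ratios were 1.90 and 1.77. In bulk RNA, fewer cells of a type and less RNA per cell cannot be told apart.

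In SI, 18 of the 28 members rose in monolayers, where 9.71% of all tested genes were called higher. No member fell there, whereas 16.4% of all tested genes were called lower (edgeR; 0 members lower at an unadjusted p under 0.05, and 0 with DESeq2). The median log2 fold change of the members was 1.14, compared with -0.05 over all tested genes. In LI, 15 members fell in monolayers, where 23.5% of all tested genes were called lower, and no member rose, whereas 14.5% were called higher (edgeR; 2 members higher at an unadjusted p under 0.05, and 0 with DESeq2). The median of the members was -1.05 in LI, compared with -0.05 over all tested genes. Upper quartile scaling in place of TMM moves that last median to -0.17, and 16 members were called lower with it, beside 25.6% of all tested genes. Monolayer and tissue libraries did not overlap for 25 members in SI, where 66.4% of the tested genes did not, and for 28 in LI, where 73.1% did not.

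Sorted by both tests, 8 members rose in SI monolayers and fell in LI monolayers: Acat2, Hmgcs1, Mvd, Fdps, Nsdhl, Insig1, Scd1 and Scd2, a class that held 0.664% of all tested genes. A further 10 rose in SI and were not called in LI (3.01% of all tested genes), and 7 were not called in SI and fell in LI (11.6%). Sc5d, Srebf2 and Elovl6 were called in neither region, as were 54.4% of all tested genes. By group mean, an ordering looked at after the values were seen, 16 members (57.1%) had SI monolayers above LI tissue, LI tissue above SI tissue, and LI monolayers last, an order found in 1.54% of all tested genes. SI monolayers were the highest group for 22 members and LI monolayers the lowest for 23, compared with 15.7% and 32.5% of all tested genes.

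**Figure D1:**
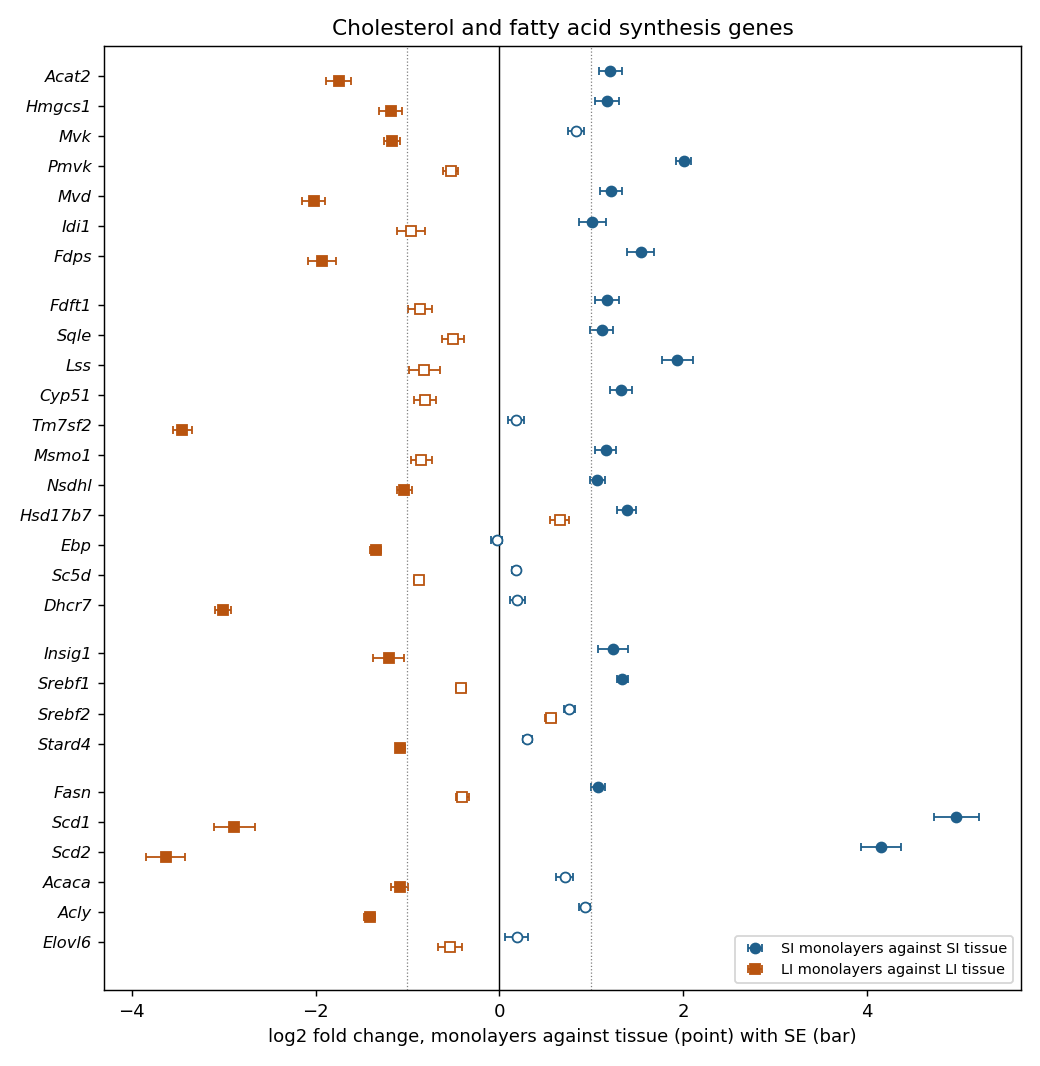
Log2 fold change of monolayers against tissue for each of the 28 members, in SI (circles) and LI (squares), with SE as bars; filled symbols were called and open ones were not, and dotted lines mark an absolute log2 fold change of 1. Filled circles lie right of 0 for 18 members and filled squares left of 0 for 15, and Scd1 and Scd2 lie farthest out on the SI side.

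Hmgcs1 (ENSMUSG00000093930.2, chromosome 13 from 119690379 to 119708260) encodes the cytosolic synthase that joins acetyl-CoA and acetoacetyl-CoA at the entry to the mevalonate pathway. Its normalized counts were 12542, 13060.4 and 15291 in tissue and 30743, 30619 and 28630.4 in monolayers of SI, and 24082, 23646 and 16949.6 in tissue and 8218, 9376 and 9966 in monolayers of LI. The monolayer libraries of SI were all above, and those of LI all below, the tissue libraries of their region, and the lowest LI tissue library (replicate 3) stood closest to SI tissue. Hmgcs1 rose in SI with a log2 fold change of 1.17 (SE 0.13, edgeR adjusted p = 6.87e-06) and fell in LI with -1.18 (SE 0.13, edgeR adjusted p = 4.38e-06). On the opposite strand 557 of its exonic bases (12.1%) belong to Gm48342 as well, and 11.6% of its 50-base stretches occur in other genes.

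Mvd (ENSMUSG00000006517.5, chromosome 8 from 122433601 to 122443422), the decarboxylase that makes isopentenyl diphosphate, held 3240.4, 3692 and 4326 normalized counts in SI tissue and 8478, 8494 and 8606 in SI monolayers. In LI it held 7588, 8820.0 and 6406 in tissue and 1664, 1832 and 1951 in monolayers. LI tissue libraries reached the level of SI monolayers, since replicate 2 lay above all of them, whereas LI monolayers lay below the 9 other libraries. The log2 fold change was 1.22 (SE 0.12, edgeR adjusted p = 2.16e-06) in SI and -2.02 (SE 0.12, edgeR adjusted p = 1.4e-08) in LI, the largest fall among the 7 early genes.

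Pmvk (ENSMUSG00000027952.16, chromosome 3 from 89454541 to 89469013), which encodes phosphomevalonate kinase, showed the largest rise of the early genes in SI. Its libraries held 1977, 2119 and 2333 in SI tissue against 8391, 8292 and 8556 in SI monolayers, and 2823, 3475 and 2899 in LI tissue against 1924, 2060.3 and 2196 in LI monolayers. The SI groups were far apart and the LI groups were close without overlapping. The log2 fold change was 2.01 (SE 0.08, edgeR adjusted p = 8.46e-12) in SI, whereas in LI it was -0.53 (SE 0.08) and not called.

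Acat2, the cytosolic acetyl-CoA acetyltransferase that supplies acetoacetyl-CoA, rose from 3445 ± 509 to 7782 ± 74.2 in SI and fell from 5212 ± 815 to 1502 ± 190.4 in LI, with log2 fold changes of 1.21 and -1.75. Fdps, the farnesyl diphosphate synthase, rose from 250.4 ± 27.1 to 711 ± 41.0 in SI and fell from 578 ± 123 to 147 ± 11.5 in LI (log2 fold changes 1.54 and -1.93). These 2 genes are uncertain: of the 50-base stretches of their transcripts, 39.1% for Acat2 and 26.2% for Fdps also occur in other genes, and 1124 exonic bases of Fdps (26.7%) belong on the same strand to the annotated gene Gm43738 as well. Among the genes that share sequence, means were at most 146 normalized counts in any group for Acat3, a partner of Acat2, and 1.44 for Gm43738. Acat2 also shares stretches with Tcp1, and Fdps with 8 genes in all, among them Gm3571 and Gm5873. The levels of Tcp1 and of the other partners of Fdps were not read. Idi1, the isopentenyl diphosphate isomerase, went from 4085 ± 719.7 to 8052 ± 432 in SI, a log2 fold change of 1.01 (SE 0.15, edgeR adjusted p = 0.000166). That call was lost with DESeq2 (0.97), upper quartile scaling (0.97) and a filter of at least 10 counts (0.94), and without SI tissue replicate 1 (0.93) or 2 (0.95). In LI Idi1 went from 5692 ± 953 to 2828 ± 365, and -0.96 (SE 0.15) was not called, although it passed in 9 other fits with values from -1.12 to -1.01, namely upper quartile scaling, the filter of at least 10 counts and those without SI monolayer replicate 1, 2 or 3, LI tissue replicate 1 or 3, or LI monolayer replicate 2 or 3. Of its 50-base stretches 25.3% occur in other genes, so Idi1 is uncertain too. Mvk, the mevalonate kinase, fell in LI from 5653 ± 759 to 2439.7 ± 123 (log2 fold change -1.17), and its SI value of 0.84 (SE 0.09) was under the minimum fold change.

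Summed over the 7 early genes, the libraries held 70981, 70411 and 68389 in SI monolayers beside 28103, 29633 and 35261 in SI tissue, and 18030, 20261 and 21646 in LI monolayers beside 50949, 55971 and 41176 in LI tissue. No pair of groups overlapped in this sum. Of the 7 genes, 6 rose in SI (9.71% of all tested genes) and 5 fell in LI (23.5% of all tested genes).

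Among the 11 later genes, 7 rose in SI monolayers (9.71% of all tested genes) and 4 fell in LI monolayers (23.5% of all tested genes), and only Nsdhl, a dehydrogenase of sterol demethylation, was in both counts. Lss (ENSMUSG00000033105.12, chromosome 10 from 76531588 to 76557138), the cyclase that makes lanosterol, rose most in SI. Its normalized counts were 3131, 3583 and 4081 in SI tissue against 13418, 13276 and 13649 in SI monolayers, and 5610.1, 6582 and 3929.7 in LI tissue against 2724, 2945 and 3196 in LI monolayers. SI monolayers stood above the 9 other libraries, and the tissues of SI and LI overlapped with LI tissue replicate 3 low. The log2 fold change was 1.94 (SE 0.17, edgeR adjusted p = 3.84e-06) in SI and -0.82 (SE 0.17, edgeR adjusted p = 0.00141) in LI, where it was not called.

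Tm7sf2 and Dhcr7 had another pattern, being uncalled in SI and having the largest falls of the 18 sterol genes in LI. Tm7sf2 (ENSMUSG00000024799.16, chromosome 19 from 6062821 to 6068373), a sterol reductase that acts soon after lanosterol, held 2588, 2333 and 2431 in SI tissue and 2747, 2636 and 2737 in SI monolayers. In LI tissue it held 3088, 3459.9 and 3279, and in LI monolayers 314, 233 and 321. The 3 LI monolayer libraries stood alone at a low level, while the other 9 lay between 2333 and 3460. Its log2 fold change was -3.45 (SE 0.10, edgeR adjusted p = 6.06e-14) in LI and 0.18 (SE 0.09, edgeR adjusted p = 0.0933) in SI.

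Dhcr7 (ENSMUSG00000058454.15, chromosome 7 from 143823145 to 143848410), the reductase that completes the sterol at the end of the pathway, held 4365, 3867 and 4733 normalized counts in tissue and 4559, 4831 and 5097 in monolayers of SI, and 7792, 8161 and 6868 in tissue and 841, 937 and 970.4 in monolayers of LI. The SI groups overlapped, LI tissue was highest, and LI monolayers were lowest by a wide margin. The log2 fold change was -3.01 (SE 0.09, edgeR adjusted p = 9.75e-14) in LI, and the SI value of 0.19 (SE 0.08, edgeR adjusted p = 0.0493) was under the minimum fold change. Of the exonic bases of Tm7sf2, 532 (12.1%) are shared on the same strand with Vps51, whose own level stayed between 2283 and 2653 in the means of the 4 groups.

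Hsd17b7 and Srebf2 were the members above their tissue level in LI monolayers. Hsd17b7 (ENSMUSG00000026675.12, chromosome 1 from 169949535 to 169969241), a sterol ketone reductase, held 2419, 2507 and 2745 in tissue and 6374, 6621 and 6576 in monolayers of SI, and 2898, 2947 and 2112 in tissue and 3691, 4098 and 4364 in monolayers of LI. Monolayers were above tissue in both regions, and the tissues overlapped. It rose in SI with a log2 fold change of 1.39 (SE 0.10, edgeR adjusted p = 5.71e-08), and in LI the value was 0.66 (SE 0.10, edgeR adjusted p = 6.31e-05), positive but under the minimum fold change.

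Besides Lss, 5 genes of the middle steps had the same order of group means. Fdft1, the squalene synthase, had group means of 17042 ± 421 in SI monolayers beside 7753 ± 1197 in SI tissue, and 7589 ± 701 in LI monolayers beside 14288 ± 2417 in LI tissue. Sqle, the squalene epoxidase, had means of 12382 in tissue and 26183 in monolayers of SI, and 17136 in tissue and 11709 in monolayers of LI. Cyp51, the lanosterol demethylase, had means of 11648 in tissue and 28518 in monolayers of SI, and 18122 in tissue and 10003 in monolayers of LI. Msmo1, a sterol methyl oxidase, had means of 8659.9 in tissue and 18909 in monolayers of SI, and 15723 in tissue and 8464 in monolayers of LI. Nsdhl had means of 3774 in tissue and 7731 in monolayers of SI, and 5919 in tissue and 2803 in monolayers of LI. Each had its highest mean in SI monolayers and its lowest in LI monolayers, although LI monolayers and SI tissue overlapped for all but Nsdhl. Each rose in SI, with log2 fold changes of 1.17, 1.11, 1.33, 1.16 and 1.07 in that order (largest edgeR adjusted p 1.57e-05). In LI the values were -0.87, -0.50, -0.81, -0.85 and -1.03, and only that of Nsdhl was called, a call lost without LI tissue replicate 2 (-0.94). Without LI monolayer replicate 3 that of Fdft1 was called as well (-1.01). Of the 50-base stretches of Fdft1 26.5% occur in other genes, and it overlaps Ctsb on the opposite strand over 774 exonic bases (18.3%), and since the strand setting of the counting was not stated, reads of the abundant Ctsb (up to 49140 normalized counts in the group means) cannot be told apart there.

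Ebp, a sterol isomerase, and Sc5d, a sterol desaturase, did not rise in SI. Ebp held 5004 ± 226 in SI tissue and 4795 ± 148 in SI monolayers, which overlapped, and fell in LI from 6600.2 ± 463 to 2516 ± 112 (log2 fold change -1.35, SE 0.06). Sc5d held 8399.8 ± 133 and 9305 ± 76.4 in SI and 6955 ± 350.5 and 3661 ± 11.6 in LI, with log2 fold changes of 0.18 and -0.88 that were both under the minimum.

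Of the regulators, Insig1 (ENSMUSG00000045294.11, chromosome 5 from 28071363 to 28078662) encodes the sterol-sensitive retention factor of the SREBP proteins. Its libraries held 8854, 7967 and 10734 in SI tissue against 21099, 21151 and 21248 in SI monolayers, and 12207, 10902 and 7821 in LI tissue against 3809, 4278 and 4891 in LI monolayers. The tissues of both regions overlapped, whereas the monolayers lay on either side of them. Insig1 rose in SI with a log2 fold change of 1.24 (SE 0.16, edgeR adjusted p = 9.67e-05) and fell in LI with -1.21 (SE 0.17, edgeR adjusted p = 9.18e-05).

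Srebf1 (ENSMUSG00000020538.15, chromosome 11 from 60199089 to 60222581), which encodes the SREBP best known for lipogenic genes, held 7187, 6786 and 6179 in SI tissue and 16304, 16391 and 16954 in SI monolayers, and 8025, 8829 and 8478 in LI tissue and 5904, 6068 and 6426 in LI monolayers. SI monolayers were clear of the other 9 libraries. The log2 fold change was 1.34 (SE 0.06, edgeR adjusted p = 2.13e-11) in SI, and -0.42 (SE 0.06) in LI was not called.

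Srebf2 (ENSMUSG00000022463.8, chromosome 15 from 82147181 to 82205379), which encodes the SREBP best known for sterol genes, did not share the opposite signs. Its normalized counts were 15903, 17962 and 17480.4 in tissue and 28285, 27993 and 28759.9 in monolayers of SI, and 21879.5, 21277 and 18618 in tissue and 27899, 29279.8 and 30844 in monolayers of LI. Monolayers were above tissue in both regions, and SI and LI monolayers overlapped. The log2 fold changes were 0.76 (SE 0.06, edgeR adjusted p = 2.68e-08) in SI and 0.56 (SE 0.06, edgeR adjusted p = 6.5e-07) in LI, both under the minimum fold change. Between the monolayers of SI and LI the difference was -0.02 (SE 0.06, edgeR adjusted p = 0.815).

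Stard4, a soluble carrier of sterol between membranes, held 16388, 16544 and 16575 in SI tissue and 20101, 20068 and 19571 in SI monolayers, and 14279, 15473 and 13769 in LI tissue and 6476, 6568 and 6959 in LI monolayers. Its LI monolayer libraries were all below the LI tissue libraries. The fall in LI had a log2 fold change of -1.08 (SE 0.05, edgeR adjusted p = 1.5e-11), and the SI value was 0.31 (SE 0.05).

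The widest differences were in the stearoyl-CoA desaturases. Scd2 (ENSMUSG00000025203.6, chromosome 19 from 44293674 to 44306864) held 4861, 5587 and 7572 normalized counts in SI tissue and 103356, 104968 and 104904 in SI monolayers. In LI tissue it held 48419, 58411 and 57403, and in LI monolayers 3515, 3899 and 5442. SI monolayers and LI tissue formed a high level and the other groups a low level, with LI monolayers and SI tissue overlapping. The log2 fold change was 4.15 (SE 0.22, edgeR adjusted p = 1.15e-07) in SI and -3.63 (SE 0.21, edgeR adjusted p = 1.65e-07) in LI.

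Scd1 (ENSMUSG00000037071.3, chromosome 19 from 44394455 to 44407879), its neighbour on the same chromosome, held 6603, 6379.9 and 6469 in SI monolayers beside 299, 169.9 and 171 in SI tissue, and 334, 397 and 445 in LI monolayers beside 2320.2, 3546 and 3088 in LI tissue. The same pair of groups was high, and SI tissue replicate 1 stood above the 2 other libraries of its group. Scd1 rose in SI with a log2 fold change of 4.97 (SE 0.25, edgeR adjusted p = 5.4e-08) and fell in LI with -2.89 (SE 0.22, edgeR adjusted p = 1.12e-06). Per kilobase of exon, the mean level of Scd2 was 19109 normalized counts in SI monolayers and 10019 in LI tissue, compared with 1325 and 610.1 for Scd1, and Scd2 had the highest level per kilobase of the 28 members in these groups. Of their 50-base stretches, 4.56% for Scd1 and 3.97% for Scd2 occur in other genes, mainly in each other and in Scd3 and Scd4.

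Acly (ENSMUSG00000020917.17, chromosome 11 from 100476353 to 100528000), the citrate lyase that makes cytosolic acetyl-CoA, held 8295, 8941 and 9657 in SI tissue against 16608, 16608 and 16796 in SI monolayers, and 35935, 38959.7 and 37921 in LI tissue against 13389.9, 13121 and 14582 in LI monolayers. LI tissue stood above all other libraries. The fall in LI monolayers had a log2 fold change of -1.41 (SE 0.06, edgeR adjusted p = 7.37e-12), and the SI value of 0.93 (SE 0.06) was just under the minimum. Fasn, the fatty acid synthase, had group means of 8681 ± 127 in tissue and 17843 ± 296 in monolayers of SI, and 16567 ± 1809 in tissue and 12117 ± 1036 in monolayers of LI. It rose in SI with a log2 fold change of 1.07 (SE 0.07, edgeR adjusted p = 2.19e-09), and in LI the value was -0.40 (SE 0.07). Acaca, the acetyl-CoA carboxylase that makes malonyl-CoA, fell in LI from 4419 ± 547 to 2017 ± 119 (log2 fold change -1.09, SE 0.09, and -0.98 without LI tissue replicate 2) and had 2484 ± 264 and 3973 ± 173 in SI (0.71, SE 0.09). Of its 50-base stretches 30.4% occur in other genes, so its counts are uncertain.

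Elovl6 (ENSMUSG00000041220.10, chromosome 3 from 129532355 to 129638495), an elongase of long-chain fatty acids, divided the libraries by region. It held 12312, 12462 and 12365 in SI monolayers beside 10285, 12834 and 10285 in SI tissue, and 2808, 2813 and 2974 in LI monolayers beside 4179.9, 5222 and 3467 in LI tissue. All SI libraries were above all LI libraries, and SI tissue and SI monolayers overlapped. Its log2 fold change against tissue was 0.19 (SE 0.12) in SI and -0.54 (SE 0.13) in LI, and neither was called. Summed over the 6 genes, fatty acid synthesis held 37484 ± 2611 in SI tissue against 161759 ± 1265 in SI monolayers, and 120610 ± 9083 in LI tissue against 35374 ± 3043 in LI monolayers.

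**Figure D2:**
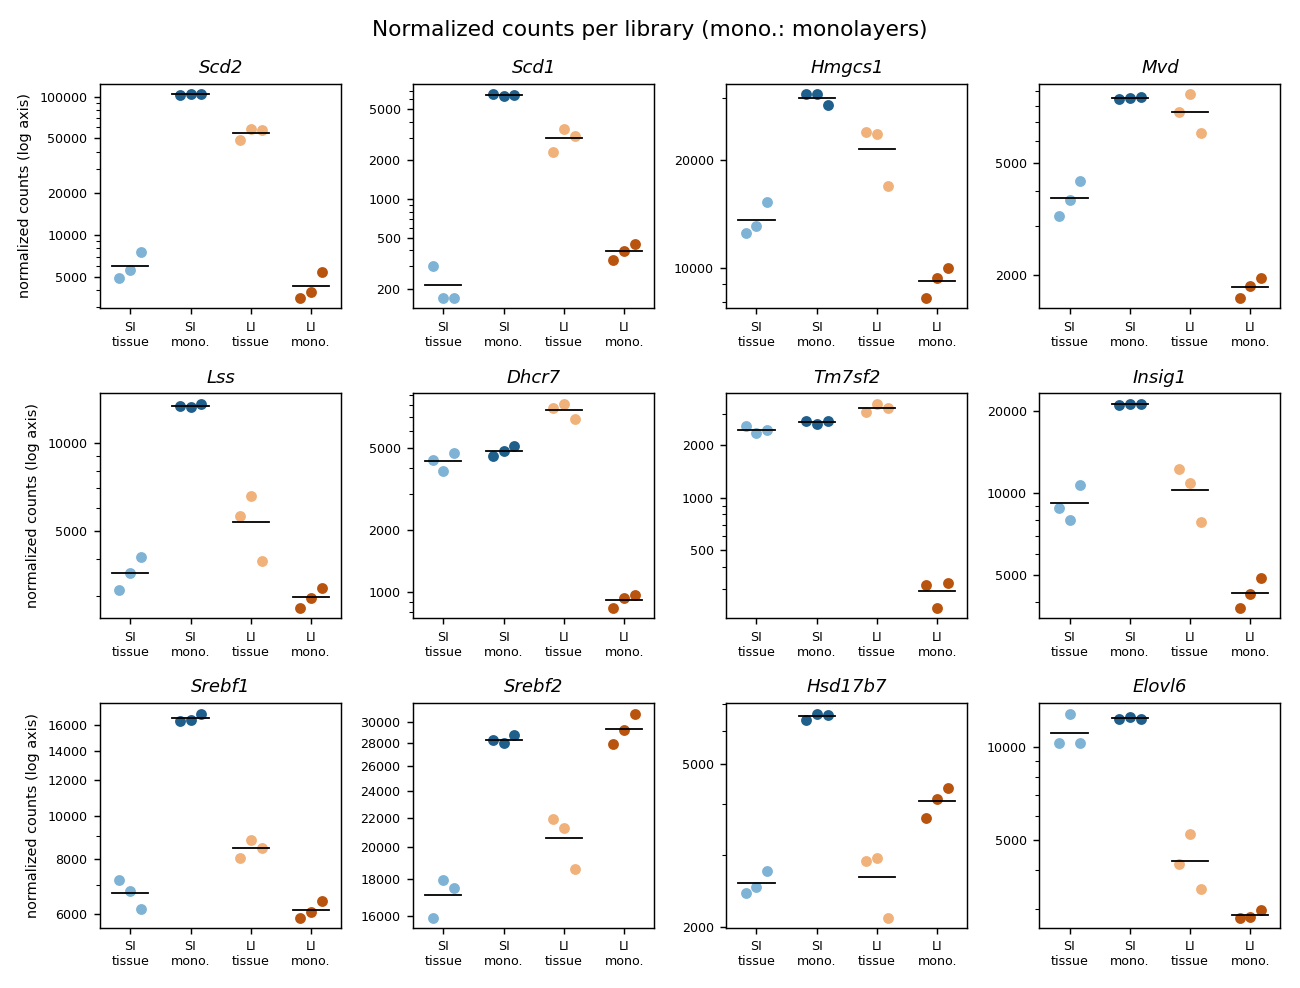
Normalized counts of 12 members in each of the 12 libraries on a log axis whose range differs between panels; points are libraries, lines are means of 3 and colours mark the 4 groups. Scd1 and Scd2 show high levels in SI monolayers and LI tissue, Dhcr7 and Tm7sf2 are low in LI monolayers alone, Srebf2 and Hsd17b7 are higher in monolayers of both regions, and Elovl6 is higher in SI libraries.

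**Figure D3:**
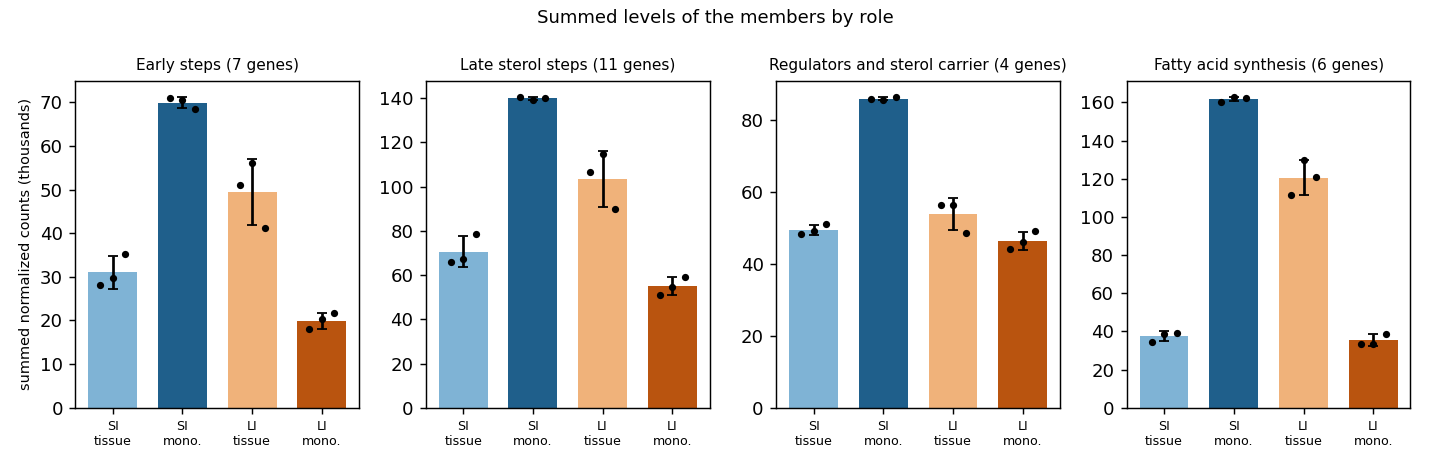
Normalized counts summed over the members of each role, on an axis that starts at 0; bars are means of 3 libraries, error bars are SD and points are libraries. In each panel SI monolayers are highest, and fatty acid synthesis reaches a mean of 4.32 times SI tissue.

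The regions were then compared within each preparation. Between the tissues, Elovl6 was higher in SI, 1 of 28 members where 11.6% of all tested genes were called higher, with a log2 fold change of 1.42 (SE 0.13, edgeR adjusted p = 2.11e-06). Scd1, Scd2, Acly and Fdps were lower in SI tissue, 4 of 28 members where 11.1% of all tested genes were called lower, a share near that background at the minimum fold change. Their log2 fold changes of SI against LI tissue were -3.78, -3.15, -2.03 and -1.16 (largest edgeR adjusted p 5.22e-06). Without that minimum 23 members were called lower, where 24.7% of all tested genes were. The median over the members was -0.56, compared with 0.06 over all tested genes. The latter turned to -0.02 with upper quartile scaling and without any single monolayer library, and to -0.01 with only the groups compared. Mvd at -0.98 lay just under the minimum and passed in 13 other fits, with values from -1.10 to -1.0009. Without LI tissue replicate 2 Fdps was no longer called (-0.9992). Among the late sterol genes 9 of 11 had an unadjusted p under 0.05 in the lower direction, and none of the 11 reached the minimum fold change. The largest edgeR adjusted p of the 9 was 0.0196, for Lss. Over all tested genes, 11421 of 19581 had an unadjusted p under 0.05 in either direction.

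Between the monolayers, 23 of 28 members were higher in SI, where 12.4% of all tested genes were called higher, and none was lower, where 8.88% were called lower (edgeR; 0 members lower at an unadjusted p under 0.05, and 0 with DESeq2). The median log2 difference was 1.54, compared with 0.02 over all tested genes. The latter lay between -0.0249 (at least 10 counts in every library) and 0.0587 (without LI monolayer replicate 3) in the other settings. Scd2 and Scd1 differed most, by 4.64 (SE 0.22) and 4.08 (SE 0.23), followed by Tm7sf2 with 3.25 (SE 0.10). The 5 members not called were Hsd17b7 (0.72), Ebp (0.96), Srebf2 (-0.02), Fasn (0.59) and Acly (0.31). Ebp passed without SI monolayer replicate 2 (1.01) or LI monolayer replicate 3 (1.03). Acaca, called at 1.01 (SE 0.09), did not pass with DESeq2 (0.98), no filter (0.98), at least 10 counts (0.97) or without LI monolayer replicate 1 (0.9982). Elovl6 was the member with a call in the same direction in both preparations, at 1.42 (SE 0.13) in tissue and 2.14 (SE 0.13) in monolayers.

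The test of the difference itself, the interaction of region and preparation, asked whether the response of SI exceeded that of LI. It was called in the positive direction for 25 of 28 members, where 11.4% of all tested genes were called positive, and in the negative direction for none, where 8.51% were called negative (edgeR; 0 members negative at an unadjusted p under 0.05, and 0 with DESeq2). The median was 2.07, compared with -0.0002 over all tested genes, a value that was 0.08 with upper quartile scaling and 0.10 to 0.12 without any single monolayer library. Scd1 had 7.86 (SE 0.33, edgeR adjusted p = 4.79e-08) and Scd2 had 7.78 (SE 0.31, edgeR adjusted p = 3.91e-08), followed by Tm7sf2 with 3.63 (SE 0.13), Fdps with 3.47 (SE 0.21), Mvd with 3.24 (SE 0.17) and Dhcr7 with 3.20 (SE 0.12). Hsd17b7 (0.73, SE 0.15), Elovl6 (0.72, SE 0.18) and Srebf2 (0.21, SE 0.09) were not called. For Tm7sf2 and Dhcr7 the region with a call was LI, whereas Hmgcs1 was called in both regions with changes of nearly equal size and opposite sign.

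The replicates were ranked within each group after the values were seen. LI tissue replicate 2 was the highest of its group for 24 members and replicate 3 the lowest for 20, compared with 32.6% and 34.2% of all tested genes. In LI monolayers replicate 3 was highest for 26 members and replicate 1 lowest for 24, compared with 35.6% and 39.9%. SI tissue replicate 3 was highest for 20 members (30.0% of all tested genes), while in SI monolayers no replicate was highest for more than 11. The median coefficient of variation of the members was 10.7% in tissue and 1.54% in monolayers of SI, compared with 12.5% and 7.53% over all tested genes. For LI it was 12.9% in tissue and 7.96% in monolayers, compared with 10.9% and 8.65%. SI tissue replicate 3 had the smallest summed level of enterocyte markers in its group (1546900, 1414340 and 977524) and the smallest mitochondrial share (9.16%, 5.92% and 4.56%), and LI tissue replicate 2 had the largest enterocyte sum in its group (253118, 393076 and 208218); their part in the result was not tested.

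Other genes of the pathway were taken from 5 further lists. The counts called in these and in the marker lists stand beside the shares over all tested genes. Those were 9.71% higher and 16.4% lower in SI monolayers, and 14.5% higher and 23.5% lower in LI monolayers. The 8 genes of SREBP processing and sensing, among them the escort Scap and the site proteases, had summed means of 30377 ± 812 in tissue and 32434 ± 78.6 in monolayers of SI, and 33998 ± 873 in tissue and 38109.6 ± 633 in monolayers of LI. In SI none was called by edgeR (5 higher and 2 lower at an unadjusted p under 0.05), and in LI only Mbtps2, a site protease gene, rose (1.04, SE 0.07), with none called lower (1 at an unadjusted p under 0.05). The medians of this list were 0.24 in SI and 0.28 in LI, beside 1.14 and -1.05 for the members.

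Of 9 tested genes of LXR signalling and sterol efflux, 1 rose and 2 fell in SI monolayers, and 4 fell in LI monolayers (Nr1h3, Abcg5, Cyp27a1 and Mylip), with none called higher by edgeR in LI (0 at an unadjusted p under 0.05). Nr1h3, which encodes an LXR receptor, fell in both regions, with log2 fold changes of -1.95 in SI and -4.45 in LI, and its normalized counts were 2021, 1723 and 2003 in LI tissue and 66.4, 117 and 74.1 in LI monolayers. Abcg1, a sterol exporter, rose in SI (1.92, SE 0.22), and Cyp27a1, a sterol hydroxylase, fell in SI (-2.21, SE 0.19) and in LI (-2.93, SE 0.21). Abcg5, part of an apical sterol exporter, fell in LI (-1.48, SE 0.22).

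Among 13 genes of sterol uptake, transport and esterification, 2 rose (Scarb1 and Stard5) and 3 fell (Npc1l1, Gramd1a and Soat2) in SI monolayers, and 1 rose and 6 fell in LI monolayers. Npc1l1, the intestinal importer of sterol, had a mean of 43307 ± 11320 in SI tissue and 12923 ± 84.3 in SI monolayers and fell there (-1.71, SE 0.53), and its level in LI was far lower, at 169.8 ± 173 and 346 ± 98.3. Scarb1, a lipoprotein receptor gene, rose in both regions (2.07, SE 0.07, and 1.003, SE 0.07), and Gramd1a, a sterol transfer protein gene, fell in both (-3.16, SE 0.19, and -3.15, SE 0.20). Stard5, a sterol carrier related to Stard4, rose in SI and fell in LI, and held 2754, 2674 and 2848 in SI monolayers beside 1044, 846 and 1162 in SI tissue, and 1019, 912 and 935 in LI monolayers beside 5077, 5206 and 4374 in LI tissue. Npc2, a lysosomal sterol carrier, fell in LI (-1.83, SE 0.07).

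The 16 genes of isoprenoid branches and other sterol enzymes had median log2 fold changes of 0.04 in SI and -0.11 in LI. In SI monolayers 2 rose, among them Por (1.40, SE 0.10), which encodes an electron donor of sterol enzymes, and 1 fell, and in LI monolayers 3 fell, with none called higher by edgeR (4 at an unadjusted p under 0.05). Acat1, the mitochondrial relative of Acat2 that serves ketone metabolism, fell in both regions (-2.34, SE 0.06, and -2.65, SE 0.06). Pdss1 and Pdss2, which make the isoprenoid tail of ubiquinone, fell in LI (-1.36, SE 0.07, and -1.34, SE 0.09).

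Of 26 tested genes of other fatty acid synthesis, elongation and desaturation, 6 rose and 1 fell in SI monolayers, and 1 (Me1) rose and 10 fell in LI monolayers. Fads2, a desaturase of polyunsaturated fatty acids, held 11793, 11723 and 14212 in SI tissue against 12317, 12181 and 12753 in SI monolayers, and 27712, 25521 and 29042 in LI tissue against 851, 965 and 1099 in LI monolayers. The SI groups overlapped, and LI monolayers were below all other libraries, with a log2 fold change of -4.77 (SE 0.11, edgeR adjusted p = 3.58e-14) in LI and 0.02 (SE 0.09) in SI. Acss2, which makes acetyl-CoA from acetate, had log2 fold changes of -3.61 (SE 0.07) in LI and 0.07 (SE 0.06) in SI. Acacb, the mitochondrial acetyl-CoA carboxylase, fell in both regions (-4.46, SE 0.33, and -3.57, SE 0.30). Mid1ip1, a promoter of carboxylase assembly, and Acsl3, an acyl-CoA synthetase gene, rose in SI (2.22, SE 0.07, and 1.45, SE 0.07).

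The cell types that the libraries could hold were read from marker lists, and markers of intestinal epithelium were abundant in all groups. Krt8, the most abundant of the 10 epithelial markers, had means of 333760 in tissue and 738829 in monolayers of SI, and 759397 in tissue and 960356 in monolayers of LI. Of these markers 4 rose (Cdh1, Krt8, Krt18 and Krt19) and none fell in SI monolayers (edgeR; 5 lower at an unadjusted p under 0.05), and 3 rose (Cdh1, Krt18 and Krt19) and 3 fell (Krt20, Cdx1 and Cdx2) in LI monolayers. Their summed level was 1016680, 1071120 and 961796 in tissue and 1850960, 1851810 and 1896280 in monolayers of SI, and 1682370, 1670900 and 1656250 in tissue and 2376300, 2430050 and 2475880 in monolayers of LI.

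Markers of cells rich in lipid synthesis were read as well. Of 10 adipocyte markers, Adipoq, Plin1, Lep and Retn had means of at most 3.40 normalized counts in any group, and Lep had no count in any library. The list's sum was 2502, 2439 and 2725 in SI monolayers beside 6974, 6263 and 5007 in SI tissue, and 892, 766 and 725 in LI monolayers beside 739.6, 782 and 469.6 in LI tissue, led by Lipe and Cidec in SI tissue. Lipe, the most abundant, fell in SI (-2.57, SE 0.14), and Adrb3, at a mean of at most 13.6 in any group, was also called lower there, with none called higher by edgeR (0 at an unadjusted p under 0.05). In LI none of the 5 tested markers was called by edgeR (0 at an unadjusted p under 0.05). Of 6 sebaceous gland markers, Awat1 and Elovl3 had no count, and the most abundant was Scd3, which shares sequence with Scd1 and Scd2 and is also in the list of fatty acid genes, at 139.8 ± 13.3 in SI monolayers and 73.5 ± 8.36 in LI tissue. Without Scd3, 1 sebaceous marker fell (Awat2) and 1 rose (Krt79) in LI, with means of at most 52.8, while Scd3 rose in SI and fell in LI. Of the 3 sebaceous markers tested, none was called lower in SI by edgeR (0 at an unadjusted p under 0.05). The sebaceous sum was 72.9, 53.2 and 87.0 in SI tissue against 203, 210.1 and 209 in SI monolayers, and 117, 135 and 147 in LI tissue against 52.9, 44.8 and 50.4 in LI monolayers.

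Of 10 immune markers, 9 fell in SI monolayers and 10 in LI monolayers, with none called higher by edgeR in either region (0 at an unadjusted p under 0.05). Their sum was 40123, 43459 and 32813 in SI tissue and 3885, 3469 and 3621 in SI monolayers, and 3886, 3100.2 and 3469 in LI tissue and 165, 295 and 209 in LI monolayers, with Gzma the most abundant. Of 10 mesenchymal markers, 2 fell in SI (Dcn and Pdgfrb), with none called higher by edgeR (0 at an unadjusted p under 0.05), and in LI 3 rose (Vim, Pdgfra and Lum) and 3 fell (Dcn, Pdgfrb and Des). Their sums were 3144, 1955 and 1345 in tissue and 1491, 2079 and 2168 in monolayers of SI, and 5338, 4477 and 3447 in tissue and 5844, 5675 and 4286 in monolayers of LI, led by Vim. The immune sum was lower in monolayers of both regions, and the mesenchymal libraries of tissue and monolayers overlapped in both; their part in the result was not tested.

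Of 12 enterocyte markers, 6 fell in SI and 4 in LI (Car1, Fabp2, Slc26a3 and Aqp8), with none called higher by edgeR in either region (0 at an unadjusted p under 0.05). Vil1, also among the epithelial markers, had the highest mean over all libraries, and the sums were 383138, 374627 and 369962 in SI monolayers beside 1546900, 1414340 and 977524 in SI tissue, and 103833, 112214 and 112246 in LI monolayers beside 253118, 393076 and 208218 in LI tissue. Of the stem cell markers, Cd44 rose and Olfm4 and Axin2 fell in SI, 1 and 2 of 10, while in LI Cd44 rose and 5 fell: Lgr5, Lrig1, Ascl2 (-6.19, SE 0.37), Smoc2 (-4.37, SE 0.16) and Axin2 (-4.15, SE 0.14). Olfm4, the most abundant stem marker, fell in SI from 84066 ± 11554 to 1209 ± 101, and the list's sums were 109668, 95499.9 and 121357 in SI tissue against 25986, 27142 and 25906 in SI monolayers, and 23816, 22288 and 22329 in LI tissue against 14159, 15612 and 15573 in LI monolayers. Of 10 proliferating cell markers, with Pcna the most abundant, 1 (Mcm3) rose in SI and 3 (Mcm2, Mcm3 and Mcm6) in LI, with none called lower by edgeR in either region (0 at an unadjusted p under 0.05) and with sums of 67875, 70563 and 71307 in tissue and 97311, 95405 and 96049 in monolayers of SI, and 54572, 60339 and 57391 in tissue and 87278, 88189 and 94029 in monolayers of LI. The mitochondrial share of counts was 4.56% to 9.16% in tissue and 0.472% to 0.559% in monolayers of SI, and 2.25% to 2.59% in tissue and 0.704% to 0.750% in monolayers of LI. The stem and enterocyte sums and the mitochondrial share were lower in monolayers of both regions, and the proliferating sums higher. The single markers did not all go with these sums. In SI the stem sum was led by Olfm4, and the median log2 fold change of the list was 0.05. In LI the median of the enterocyte list was 0.23. The interaction of region and preparation was called positive for 6 of 10 stem markers and negative for 1 (Olfm4), with a list median of 1.61. The median of the members was 2.07, and 11.4% of all tested genes were called positive and 8.51% negative. Of the enterocyte markers 2 (Car1 and Aqp8) were positive and 4 (Fabp1, Apoa4, Lct and Anpep) negative, and no proliferating marker was called. The part of these cell types and of the mitochondrial share in the result was not tested.

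RefSeq promoter windows (GRCm38.p6, 250 bases before to 50 after the start) were matched for 22 of the 28 members, in 27 windows; Fdps, Fdft1, Sqle, Stard4, Scd1 and Scd2 had no entry. CCAAT, on either strand, was in the window of 19 of 22 members (86.4%), compared with 41.1% of 27025 genes. GGGCGG was in that of 18 members (81.8%), compared with 38.2%, and both occurred in 1 window for 17 members (77.3%), compared with 14.5%, a pair counted after the single motifs were seen. CACGTG was found for 4 members (18.2%), Hsd17b7, Sc5d, Dhcr7 and Insig1, compared with 8.09%. TCACNCCAC, the letters of a sterol regulatory element, was found for Hmgcs1 only (4.55%), compared with 1.44%. None of these motifs contains another, and each was sought on both strands. The 27025 genes were all those with a window, with no filter on counts, whereas all members had passed the filter on low counts. The shares compared are thus from unlike sets, and what sets them apart was not tested. The matches describe letters in a window and not binding sites, and the absence of a match says only that the letters are not in that window.

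The match of TCACNCCAC in Hmgcs1 is shown with its flanks and the match in capitals, since it was the single one among the members, and it begins 137 bases before the RefSeq start.
Hmgcs1, chr13:119690204-119690232, plus strand: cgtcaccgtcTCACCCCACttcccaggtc

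The stretch before the start is shown for the members that rose in SI, fell in LI and had a window, with the 3 shorter motifs on either strand in capitals. It ends at the last base before the RefSeq start, or for Acat2 and Insig1, where GENCODE exons begin earlier, 23 and 50 bases before it. In Mvd the capitals mark 2 copies of CCAAT. The Nsdhl stretch holds that motif at 2 places and GGGCGG at 1 place, and Hmgcs1 holds 1 copy of the former with 2 of the latter. Insig1 shows 2 copies of the latter together with CACGTG at 1 place, and Acat2 shows 1 copy of GGGCGG only.
Acat2, chr17:12960748-12960867, minus strand: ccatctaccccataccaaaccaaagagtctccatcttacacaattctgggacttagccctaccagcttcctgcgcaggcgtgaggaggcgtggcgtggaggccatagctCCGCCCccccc
Hmgcs1, chr13:119690231-119690350, plus strand: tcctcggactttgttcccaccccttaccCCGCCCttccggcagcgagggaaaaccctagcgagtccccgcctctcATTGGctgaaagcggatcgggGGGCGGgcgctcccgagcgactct
Mvd, chr8:122443423-122443542, minus strand: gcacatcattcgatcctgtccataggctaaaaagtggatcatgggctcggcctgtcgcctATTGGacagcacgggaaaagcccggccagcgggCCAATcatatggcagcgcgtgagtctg
Nsdhl, chrX:72918412-72918520, plus strand: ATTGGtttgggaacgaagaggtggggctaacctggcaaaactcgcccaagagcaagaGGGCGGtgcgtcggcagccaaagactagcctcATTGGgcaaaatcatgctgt
Insig1, chr5:28071243-28071362, plus strand: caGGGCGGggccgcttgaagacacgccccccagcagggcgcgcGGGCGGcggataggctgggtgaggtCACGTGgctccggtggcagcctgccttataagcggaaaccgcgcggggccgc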

How the data were processed

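Paired-end Illumina HiSeq reads were aligned to GRCm38 with STAR 2.7.9a and counted on GENCODE genes with featureCounts 2.0.2, per the submitters' processing notes and the study's methods; the strand setting and the counting of read pairs were not stated. The authors deposited raw counts per gene and a normalized signal, made by dividing the counts of a library by 1 size factor from DESeq2 (3.13 in those notes), with no log transform. Both tables were used for all 12 libraries.

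Symbols were matched by Ensembl ID without version (Spring1 through its RefSeq synonym). Counts were tested in 5 comparisons with edgeR 4.0.16 in R 4.3.3 (filterByExpr, TMM, robust glmQLFit, 1 model of 4 group means), after a test on simulated data. Positions, exon overlaps and 50-base stretches are from GENCODE vM21 on GRCm38, whereas the authors counted on vM25, whose overlaps and shared stretches may differ. The median biological coefficient of variation was 0.127, and 3 counts correspond to 0.0394 to 0.0508 CPM. With each count halved first, the median squared difference between replicates of a group was 2.14 to 7.88 times that of counting noise. This does not show that monolayer libraries came from separate cultures.

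Alternatives were DESeq2 1.42.0, upper quartile scaling, no filter or a minimum of 10 counts per library, calls without a minimum fold change, fits of the compared groups alone, a replicate block, each library left out, TMM CPM for sums, and bases before the start for motifs. Named are the members; of each other list, up to 3 called genes of largest change per region with at least 1 CPM; the most abundant gene of each cell type list; and genes behind counts of 5 or fewer. Chosen after values were seen were the replicate ranks, the order of groups, the motif pair, the partner genes that share sequence, the promoters printed and the Spring1 match. Members and lists were chosen with earlier results of these data known. The lists were SREBP processing, LXR and efflux, sterol uptake, isoprenoid branches, other fatty acid genes, and adipocyte, sebaceous, mesenchymal, immune, enterocyte, proliferating, stem and epithelial markers.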

Additional observations from a re-analysis of the deposited data

Results flagged for a closer look

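The monolayer response differed between SI and LI for 25 members by edgeR's interaction test (log2, adjusted p under 0.05 and absolute value of at least 1). All were positive, where 11.4% of all tested genes were called positive and 8.51% negative. Among the early genes the value was 2.96 for Acat2, 2.36 for Hmgcs1, 2.004 for Mvk, 2.53 for Pmvk, 3.24 for Mvd, 1.98 for Idi1 and 3.47 for Fdps. Among the later sterol genes it was 2.04 for Fdft1, 1.62 for Sqle, 2.75 for Lss, 2.14 for Cyp51, 3.63 for Tm7sf2 and 2.01 for Msmo1. It was 2.10 for Nsdhl, 1.32 for Ebp, 1.06 for Sc5d and 3.20 for Dhcr7. For regulators and the sterol carrier it was 2.44 for Insig1, 1.75 for Srebf1 and 1.38 for Stard4. For fatty acid synthesis it was 1.48 for Fasn, 7.86 for Scd1, 7.78 for Scd2, 1.80 for Acaca and 2.34 for Acly. Groups of 3 libraries were not tested for outlying samples.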

How the results depend on the processing

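Without a minimum fold change, 2 members were called higher and 26 lower in LI monolayers (32.1% and 36.6% of all tested genes), and 3 were higher and 23 lower in SI tissue than in LI tissue (29.2% and 24.7%). The other 198 recomputed counts, sums and motif values were counted as unmoved, under limits that are not given here. They include the count of members that rose in SI, to which dropping the minimum fold change added 7 members, where 29.0% of all tested genes were called higher. Of the values of single members, 2534 kept direction and side of the threshold, 72 came to pass it, 12 no longer passed and 14 changed sign. The 72 include members that passed only because the minimum fold change was dropped. These were 7 in SI, 13 in LI, 21 between tissues, 4 between monolayers and 2 in the interaction. What moved the other values was not tested.

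The sign changed for values near 0. Ebp between SI monolayers and tissue was 0.0001 with only the groups compared, and -0.0672 to 0.0357 with single libraries left out. Leaving out libraries gave -0.145 to 0.0719 for Hsd17b7 and -0.282 to 0.0067 for Insig1 between the tissues, and -0.0255 to 0.0487 for Srebf2 between the monolayers.

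With single libraries left out, 17 to 18 members rose in SI, where 9.237% to 9.804% of all tested genes did. In LI 13 to 17 members fell, where 22.15% to 24.58% of all tested genes did. Between tissues 3 to 5 members were lower in SI, where 10.48% to 12.02% of all tested genes were. Between monolayers 22 to 24 members were higher in SI, where 11.75% to 12.12% of all tested genes were. A positive interaction was called for 25 members, where 10.62% to 12.21% of all tested genes had one.

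With the replicate number as a replicate block, 18 members were called higher and 0 lower in SI (9.54% and 16.08% of all tested genes). In LI these counts were 0 and 15 (14.38% and 23.25%), and between tissues 1 and 4 (11.34% and 11.05%). They were 23 and 0 between monolayers (12.14% and 8.71%) and 25 and 0 in the interaction (11.21% and 8.23%). No member count moved with the block. Deviations of libraries with the same number correlated at -0.0516 to 0.0563, and which libraries share mice is not given.

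The medians over all tested genes moved with the setting, from -0.0890 to -0.0034 in SI, -0.171 to -0.0202 in LI, -0.0206 to 0.0758 between tissues, -0.0249 to 0.0587 between monolayers and -0.0125 to 0.118 in the interaction, so their sign is not settled in the last 3.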
